A study of Triticum aestivum with 18 samples.

Results

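Lipoxygenases are iron-containing dioxygenases that add oxygen to linoleic and linolenic acid, the main polyunsaturated fatty acids of plant membranes and of wheat grain lipid. Plants hold 9-lipoxygenases and 13-lipoxygenases, named for the carbon that is oxygenated, and the product of the plastid 13-lipoxygenases is the starting material of jasmonate, a hormone of wounding, defence and leaf senescence. In wheat grain, lipoxygenase activity is best known for bleaching carotenoid pigment during milling and dough making. The deposited table does not say which of these types any of the genes below encodes.

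The 7 genes described here were picked by identifier from the 34 loci whose description reads lipoxygenase, in a table of 115478 loci. They are MSTRG.11562 on chromosome arm 2AL (gene name TRIAE_CS42_2AL_TGACv1_094436_AA0297550), MSTRG.8761 on 1DL (TRIAE_CS42_1DL_TGACv1_062999_AA0222780), MSTRG.35159 on 4AL (TRIAE_CS42_4AL_TGACv1_289219_AA0967530) and MSTRG.74867 on 7DS (TRIAE_CS42_7DS_TGACv1_625379_AA2064980). The remaining ones are MSTRG.58191 on 6AS (TRIAE_CS42_6AS_TGACv1_488871_AA1576410), MSTRG.53511 on 5DL (TRIAE_CS42_5DL_TGACv1_435337_AA1449230) and MSTRG.44050 on 5AL (TRIAE_CS42_5AL_TGACv1_374359_AA1197930). They were picked with their levels in these same libraries known, so their differences are a description and carry no p-value. The table annotates all 34 loci with the same 7 gene ontology terms, among them oxylipin biosynthetic process, so the terms do not separate one copy from another.

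The chromosome arm is the one in the gene name, and genome positions were not used here. Wheat carries A, B and D copies of most genes, and a read of one copy may have been counted for another, which makes the arm behind a single value uncertain. Whether strand was recorded is not given in the sources used here, so antisense reads cannot be told apart either.

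Poly(A) RNA of bread wheat (Triticum aestivum, cultivar not given in the sources used here) at grain filling was sequenced in 18 libraries, 3 in each of 6 groups. Flag leaves came from intact plants grown normally, from plants that had lost 0.5 of the spike (partial removal) and from plants that had lost the whole spike. Grains came from intact plants, from plants after partial removal, and from plants with shaded spikes and no leaves left. Shading was never applied without leaf removal, and every cut plant also lost spike tissue or leaves, so these components cannot be told apart. In such bulk tissue fewer cells of a type and less RNA per cell cannot be told apart.

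Values are FPKM, fragment numbers corrected for transcript length and for the size of the library, scaled between the libraries of a tissue. Differences are on the scale of log2(scaled FPKM + 1), with the standard error (SE) of the limma fit, and this scale understates the change of a low gene. A gene was tested where its FPKM reached 1 in at least 3 libraries of the tissue, and a call required an adjusted p under 0.05 (Benjamini-Hochberg, over all genes tested). Whether the 3 libraries of each group stand for separate plants is not stated in the labels, so p-values measure only the spread between these samples, which may be technical.

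As sums, mesophyll and endosperm markers separated the tissues, and embryo and aleurone markers did so less cleanly. Summed leaf mesophyll markers (78 loci of chlorophyll-binding proteins and the Rubisco small subunit) lay between 1470 and 8086 scaled FPKM in leaf and between 3.57 and 44.5 in grain. The 20 starchy endosperm loci (gliadins, glutenins and related storage proteins) summed to 5280 to 7493 in control grain. The 29 embryo and aleurone loci summed to 309 to 705 in leaf and to 1277 to 2399 in grain. Control leaf libraries 2 and 3 held 39.1 and 59.7 of these endosperm transcripts, while control leaf library 1 held 0.0659 and treated leaves held at most 0.0138. The glutenin locus MSTRG.6678 of the endosperm list went against the sum. With all libraries scaled together, it averaged 2.47 in control leaf and 0 in every grain group. Shaded grain library 2 stood apart, with 12276 loci at an FPKM of 1 or more where every other library had at least 36709. Loci without a gene name took 89.9% of its FPKM sum, against 13.9 to 55.4% in the other libraries. Its values were divided by a scaling factor of 0.228, where the other grain libraries had 0.922 to 1.40, so its scaled levels are several times the deposited ones. Its relative depth was 0.870 of control leaf library 1, within the range of 0.813 to 1.06 over all libraries, but this rests on the 6.52% of low values compared that lay near 1 ratio. For the 7 genes, differences between shaded and control grain are given with and without it. Other shaded-grain values include shaded library 2 unless stated. Among the other grain libraries, control library 1 had the most FPKM in unnamed loci (55.4%), the fewest loci (36709) and the lowest scaling factor (0.922).

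**Figure D1:**
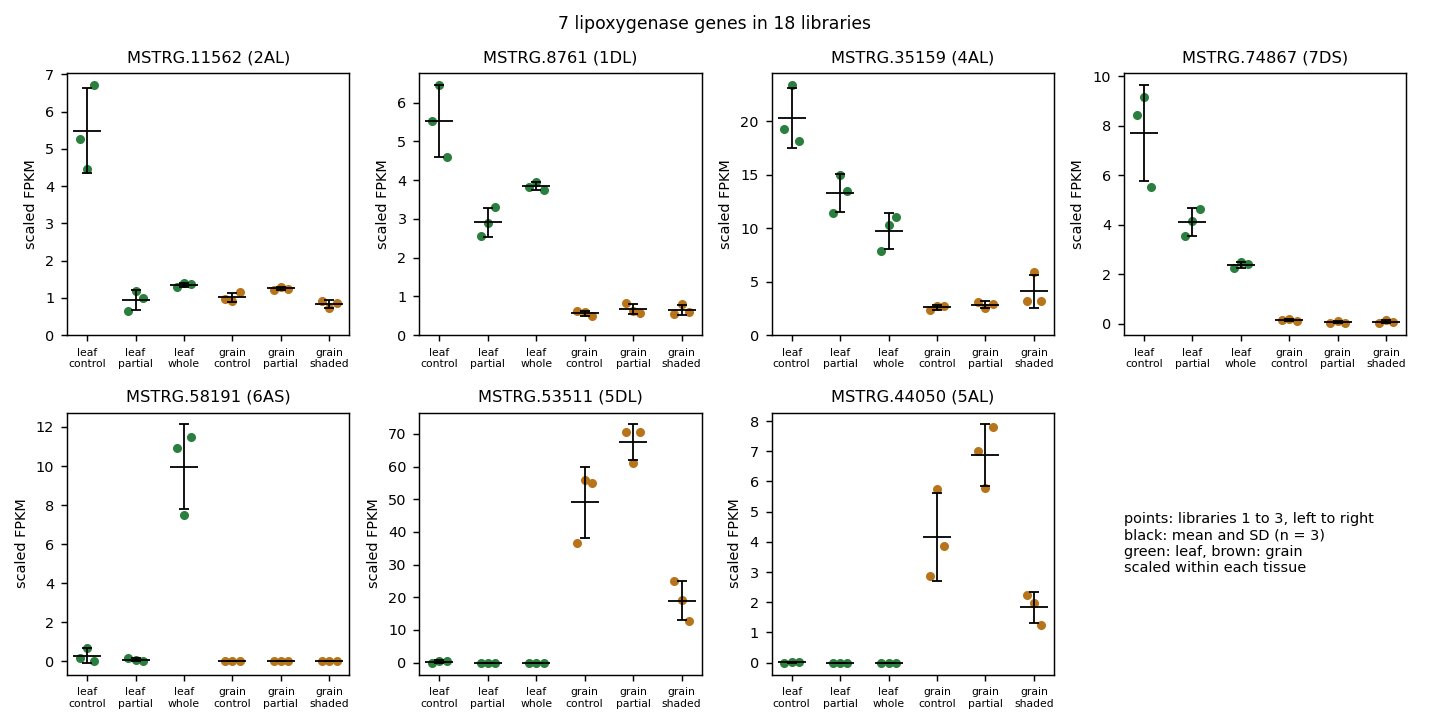
Scaled FPKM of each of the 7 lipoxygenase genes in every library (vertical axis, points), by group of 3 libraries (horizontal axis), with black bars for the group mean and SD. MSTRG.11562, MSTRG.8761, MSTRG.35159 and MSTRG.74867 were highest in control leaf, MSTRG.58191 stood at 7.47 to 11.5 in leaf after whole spike removal and under 1 elsewhere, and MSTRG.53511 and MSTRG.44050 were at or near 0 in every leaf library.

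Across tissues the 7 genes fell into 3 patterns. MSTRG.11562, MSTRG.8761, MSTRG.35159 and MSTRG.74867, here called leaf copies, were highest in control leaf and lower in leaf when spike tissue had been removed. For MSTRG.11562 the name holds for control leaf only. With all libraries scaled together, its leaf means were 0.837 after partial and 1.16 after whole removal, and its grain means ran from 0.960 to 1.43. MSTRG.58191 was near 0 everywhere except in leaves of plants without a spike. MSTRG.53511 and MSTRG.44050 were grain copies that were lower in shaded grain.

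MSTRG.11562, the 2AL copy, had the largest relative difference among the leaf copies. Its level was 5.28, 4.46 and 6.73 scaled FPKM in the control leaf libraries, 0.659, 1.18 and 0.999 after partial removal, and 1.29, 1.39 and 1.37 after whole removal. All 3 control libraries lay above all 6 treated ones, and the whole-removal libraries also lay above the partial-removal ones without overlap. The difference from control was -1.73 ± 0.16 (log2, SE) after partial and -1.45 ± 0.16 after whole removal, and that between whole and partial removal was 0.28 ± 0.16. As a ratio of group means, control leaf held 5.81 times the level of partial removal and 4.06 times that of whole removal. Control leaf library 1, with almost no endosperm transcripts, lay between the other control libraries.

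In grain the same gene stayed near 1 scaled FPKM. It stood at 0.981, 0.923 and 1.15 in control, 1.21, 1.31 and 1.25 after partial removal, and 0.927, 0.726 and 0.868 in shaded grain. Partial removal lay above control without overlap, by 0.16 ± 0.10, in the direction opposite to that in leaf. This was close to the median of 0.17 over the 15 lipoxygenases tested in grain, of which 14 were above 0. The shaded libraries overlapped control, with a difference of -0.13 ± 0.10 with all libraries and -0.10 ± 0.11 without shaded library 2. In a fit of 12 libraries over both tissues, the leaf difference minus the grain difference was -1.91 ± 0.20. It was the 1 lipoxygenase called lower of 9 tested in that fit, where 0.0947% of all genes were called and 0.06% were called lower, and nothing is read from that count.

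MSTRG.8761, the 1DL copy, also had its highest level in control leaf. It measured 5.51, 6.46 and 4.60 scaled FPKM in control, 2.55, 2.88 and 3.29 after partial removal, and 3.83, 3.96 and 3.75 after whole removal. The 3 groups did not overlap, and whole removal lay between the other two. The difference from control was -0.73 ± 0.14 after partial and -0.42 ± 0.14 after whole removal, and whole removal exceeded partial removal by 0.32 ± 0.14. As a share of all lipoxygenase FPKM within a library, it took 5.99, 4.89 and 4.48% in control, 3.51, 5.73 and 5.33% after partial removal and 4.4, 4.04 and 6.04% after whole removal. By share all 3 groups overlapped. In grain its level was between 0.486 and 0.827 scaled FPKM in all 9 libraries, and the grain groups overlapped. It was not tested there, since its deposited FPKM reached 1 in only 1 grain library, at 1.06.

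MSTRG.35159, the 4AL copy, was the most abundant of the 7 genes in control leaf. It had 19.2, 23.4 and 18.1 scaled FPKM in control, 11.4, 15 and 13.5 after partial removal, and 7.90, 10.3 and 11.1 after whole removal. The levels stepped down from control over partial to whole removal with no overlap, although the lowest partial library and the highest whole library were close. The differences from control were -0.57 ± 0.17 and -0.99 ± 0.17, and whole minus partial was -0.42 ± 0.17. Its share of all lipoxygenase FPKM within a library, which needs no scaling between libraries, was 20.9, 17.7 and 17.7% in control, 15.7, 29.8 and 21.9% after partial removal, and 9.06, 10.5 and 17.9% after whole removal. By share, in contrast to level, the partial-removal libraries lay on both sides of control. A share also moves with the other loci in the sum. The lipoxygenase MSTRG.57742 alone took 13.3 to 31.7% in control leaf, 8.75 to 42.5% after partial removal and 4.43 to 36.4% after whole removal. This bears on every leaf share given here, and its part in them was not tested.

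In grain MSTRG.35159 was low, at 2.37, 2.74 and 2.69 scaled FPKM in control, 3.10, 2.51 and 2.95 after partial removal, and 3.18, 5.88 and 3.24 in shaded grain. Shaded grain lay above control by 0.46 ± 0.19. The 5.88 of shaded library 2 was an FPKM of 1.34 as deposited. Without shaded library 2, the highest of the 9, this was 0.24 ± 0.11, and with no scaling between libraries it was 0.0018. The difference between shaded grain and partial removal, 0.37 ± 0.19, turned to -0.29 with no scaling, and so has no settled direction.

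MSTRG.74867, the 7DS copy, had 8.43, 9.17 and 5.52 scaled FPKM in control leaf, 3.54, 4.14 and 4.65 after partial removal, and 2.26, 2.50 and 2.42 after whole removal. The 3 groups did not overlap and the whole-removal libraries were closely alike. Its differences from control were -0.75 ± 0.18 and -1.33 ± 0.18, and whole minus partial was -0.59 ± 0.18. Its share of all lipoxygenase FPKM was 9.15, 6.94 and 5.38% in control, 4.88, 8.23 and 7.54% after partial removal and 2.59, 2.54 and 3.90% after whole removal. By share control and partial removal overlapped, and whole removal stayed below both. Grain held between 0.0209 and 0.202, under the limit for testing.

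The 4 leaf copies thus took different orders after spike removal. MSTRG.11562 and MSTRG.8761 were lowest after partial removal, and MSTRG.35159 and MSTRG.74867 were lowest after whole removal. Within libraries, the ratio of MSTRG.11562 to MSTRG.35159 was 0.190 to 0.371 in control, 0.0577 to 0.0786 after partial and 0.124 to 0.163 after whole removal, with no overlap among the 3 groups.

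MSTRG.58191, the 6AS copy, ran the other way. It was listed at 0.176, 0.696 and 0 scaled FPKM in control leaf and at 0.150, 0.0651 and 0.0177 after partial removal. After whole removal it stood at 10.9, 7.47 and 11.5, and it was listed at 0 in all 9 grain libraries. Every whole-removal library lay above every other library, whereas control and partial removal overlapped. The difference from control was 3.10 ± 0.22 after whole and -0.23 ± 0.22 after partial removal. It passed the filter on low values through the whole-removal group alone, so its difference there followed from being tested at all.

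This gene made up 12.5, 7.61 and 18.5% of all lipoxygenase FPKM after whole removal, against at most 0.527% in any other library. A lipoxygenase locus on 6BS (TRIAE_CS42_6BS_TGACv1_514287_AA1657950) had 0.556, 0.308 and 0.214 scaled FPKM after whole removal and was at 0 or 0.00891 in all other libraries. A locus on 6DS (TRIAE_CS42_6DS_TGACv1_544465_AA1748390) never exceeded 0.0361. Both lay under the limit for testing, and whether reads of MSTRG.58191 reached them was not tested. The other 6AS locus of the family, MSTRG.57742, was abundant in leaf but spread from 2.75 to 41.9 over the 9 libraries, with all 3 groups overlapping.

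MSTRG.53511, the 5DL copy, was the most abundant of the 7 genes. It had 36.5, 55.8 and 54.9 scaled FPKM in control grain, 70.5, 61.2 and 70.7 after partial removal, and 24.9, 19.1 and 12.9 in shaded grain. The 3 groups did not overlap, with partial removal on top and shaded grain at the bottom. Shaded grain differed from control by -1.35 ± 0.25 with all libraries and by -1.39 ± 0.30 without shaded library 2. The call of this difference was lost without shaded library 2 or 3, control library 2 or 3, or any 1 partial-removal library. Control held 2.59 times the mean level of shaded grain. Partial removal differed from control by 0.47 ± 0.25, and by 0.28 to 0.73 over 15 alternative settings. Shaded grain differed from partial removal by -1.82 ± 0.25.

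The position of MSTRG.53511 within the family also differed between groups. Its share of all lipoxygenase FPKM was 29.0, 33.9 and 36.4% in control grain, 36.8, 35.7 and 35.9% after partial removal, and 18.9, 16.4 and 13.0% in shaded grain. Its ratio to MSTRG.40415, the other abundant grain lipoxygenase on 4BS, was 0.660 to 1.009 in control, 0.938 to 0.957 after partial removal and 0.238 to 0.379 in shaded grain. Shaded libraries had the lowest share and the lowest ratio of all 9, and shaded library 2 lay between the other shaded libraries on both.

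MSTRG.44050, the 5AL copy, the lower of the grain copies, had 2.86, 5.76 and 3.86 scaled FPKM in control grain, 7.02, 5.77 and 7.80 after partial removal, and 2.24, 1.98 and 1.26 in shaded grain. Shaded grain lay below all other grain libraries, while the highest control library lay just under the lowest partial-removal library. Differences from control were 0.64 ± 0.22 after partial removal and -0.84 ± 0.22 in shaded grain, or -0.93 ± 0.27 without shaded library 2. Shaded grain differed from partial removal by -1.48 ± 0.22. The ratio of MSTRG.44050 to MSTRG.53511 stayed between 0.0703 and 0.110 in all 9 grain libraries.

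Markers of grain cell types moved in the same comparisons. Summed starchy endosperm transcripts lay between 5280 and 7493 scaled FPKM in control grain, between 2180 and 2790 after partial removal and between 795 and 1999 in shaded grain. Embryo and aleurone markers (29 loci, such as oleosins and late embryogenesis abundant proteins) lay between 1493 and 2399 in control, 1520 and 1634 after partial removal and 1277 and 1478 in shaded grain. Endosperm markers were thus lower after partial removal, where MSTRG.53511 and MSTRG.44050 were higher, and lower still in shaded grain, where both were lower. Their part in the result was not tested.

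In leaf both grain copies were close to 0. MSTRG.53511 was listed at 0, 0.348 and 0.647 in control leaf, at 0 in all partial-removal libraries, and at 0, 0 and 0.00367 after whole removal. The only leaf libraries above 0.01 were control libraries 2 and 3, which also held the endosperm transcripts. MSTRG.44050 was likewise above 0 in leaf in these libraries alone, at 0.0182 and 0.0212.

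**Figure D2:**
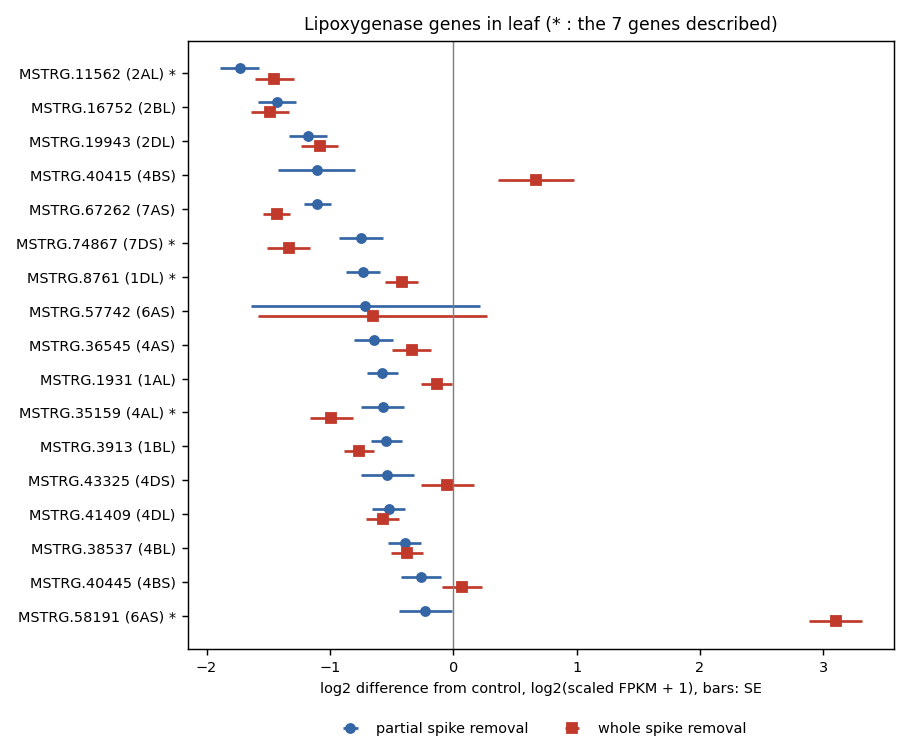
Difference from control leaf in log2(scaled FPKM + 1) (horizontal axis) for the 17 lipoxygenase genes tested in leaf (vertical axis), with circles for partial and squares for whole spike removal and bars for the SE of the fit over 9 libraries. All 17 circles lie below 0, while MSTRG.58191 stands at 3.10 after whole removal.

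In leaf, all 17 lipoxygenases that were tested had a lower mean after partial spike removal than in control. Of the 34 loci, 17 were tested and 5 of these were called lower and 0 higher, where 1.63% of all genes tested were called and 0.536% were called lower. MSTRG.11562 and MSTRG.8761 are 2 of the 5, the first called in 15 of 15 alternative settings and the second in 5 of 15. The members were picked with this comparison in view, and the settings refit the same libraries. Nothing is therefore read from the count of 5 or from these counts of settings. All 17 log2 differences were below 0, with a median of -0.65 against -0.0015 over all genes. Of the 17, 13 had groups that did not overlap, against 11.1% of all genes lower in this way. These figures include 5 members. Of the 12 other tested loci, 12 were below 0, with a median of -0.61, and 9 had groups that did not overlap. Among these 12, MSTRG.16752 and MSTRG.19943 passed the filter through control leaf alone, which fixed their direction. All 17 remained below 0 without scaling, which moves the median of all genes to -0.23, and with quantile normalization, while 16 of 17 did without partial-removal library 2. With no filter on level, 29 of 32 were below 0 and 2 above. The count of lower calls was 12 without scaling, and 2 without control leaf library 1 or without control leaf library 2, where fewer loci passed the filter.

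Among the lipoxygenases that are not members, MSTRG.16752 on 2BL fell from 2.83, 2.98 and 4.49 scaled FPKM in control leaf to 0.609, 0.680 and 0.573 after partial removal (log2 difference -1.43 ± 0.15). MSTRG.19943 on 2DL fell by 1.18 ± 0.15, from a mean of 2.69 ± 0.674 to 0.611 ± 0.0343 (SD, n = 3). MSTRG.67262 on 7AS fell from 4.35 ± 0.380 to 1.49 ± 0.161 (log2 difference -1.10 ± 0.11, limma adjusted p = 0.0049). MSTRG.16752 and MSTRG.19943 passed the filter through control leaf alone and so had to differ, which makes the filtered test no support for them. With no filter on level their limma adjusted p was 0.024 and 0.033. Among the 14 tested loci that did not pass through a single group, 3 were called lower. These were MSTRG.67262 and the members MSTRG.11562 and MSTRG.8761, which were picked from these values. In control leaf library 1, with almost no endosperm transcripts, MSTRG.16752 and MSTRG.67262 stood at 2.83 and 4.30, above all treated libraries.

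After removal of the whole spike, 8 of the 17 tested loci were called lower and 1, MSTRG.58191, higher. Here 20.3% of all genes were called, 9.5% lower and 10.8% higher. Members made up 3 of the lower calls, MSTRG.11562, MSTRG.35159 and MSTRG.74867, and nothing is read from that count. Among the others, MSTRG.16752 fell by 1.48 ± 0.15, MSTRG.67262 by 1.43 ± 0.11 and MSTRG.19943 by 1.08 ± 0.15 on the log2 scale. The limma adjusted p of MSTRG.67262 was 0.00014. MSTRG.16752 and MSTRG.19943, which had to differ from control to be tested, had limma adjusted p of 0.0021 and 0.0063 with no filter on level. MSTRG.67262, at 0.978 ± 0.0535 scaled FPKM (SD, n = 3), was lower in each whole-removal library than in any partial-removal library. Of the 14 loci that did not pass the filter through a single group, 6 were called lower, and the 3 members named above are among these 6. Both leaf comparisons share the 3 control libraries.

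Setting whole against partial removal directly, 3 of 17 tested loci were called higher and 0 lower, where 16.5% of all genes were called, 8.57% higher and 7.95% lower. MSTRG.58191 was one of them. MSTRG.40415 on 4BS rose from 0.526, 1.10 and 1.88 scaled FPKM after partial removal to 4.79, 7.19 and 6.86 after whole removal (log2 difference 1.78 ± 0.31, limma adjusted p = 0.0062). Its control leaf libraries, at 2.13, 5.73 and 3.37, overlapped those of whole removal. MSTRG.1931 on 1AL rose by 0.44 ± 0.13 (limma adjusted p = 0.043), from 1.07 ± 0.145 to 1.81 ± 0.0737 (SD, n = 3), a call that was lost without control library 1 or without any 1 of the 6 treated libraries (adjusted p of 0.069 to 0.12). Without any 1 whole-removal library the count of higher calls was 1. The limma count of lower calls was 0, and 3 loci were lower at an unadjusted p under 0.05.

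Summed over all 34 loci, lipoxygenase stood at 109 ± 20.8 scaled FPKM in control leaf, 61.6 ± 11.1 after partial removal and 82.5 ± 18.5 after whole removal (SD, n = 3). The 7 genes made up 36.8, 35.9 and 34.9% of this on average. Of the markers of leaf state, only the senescence sums after whole removal lay apart from the other groups. The 5 senescence loci (pheophorbide a oxygenases and pheophytinases, which break down chlorophyll) summed to 521 to 611 in control, 476 to 722 after partial removal and 271 to 390 after whole removal. Mesophyll markers ran from 1470 to 3999, from 1985 to 5979 and from 3218 to 8086 in the same order, overlapping throughout. Their part in the lipoxygenase differences was not tested.

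**Figure D3:**
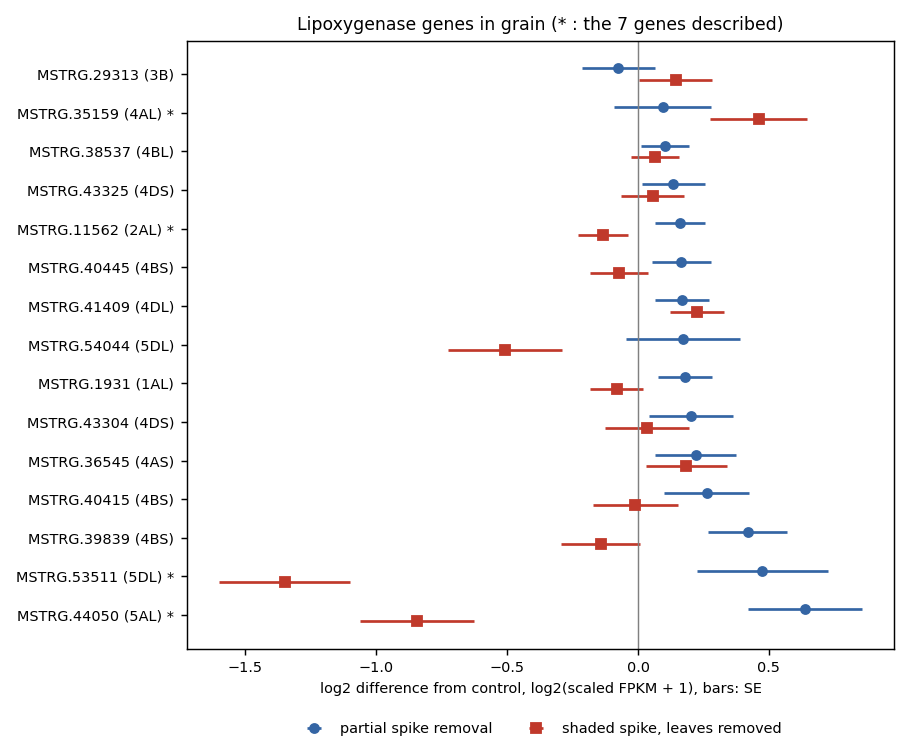
Difference from control grain in log2(scaled FPKM + 1) (horizontal axis) for the 15 lipoxygenase genes tested in grain (vertical axis), with circles for partial spike removal, squares for shaded spikes with all leaves removed, and bars for the SE of the fit over 9 libraries. MSTRG.53511 and MSTRG.44050 lie farthest to the right after partial removal and farthest to the left in shaded grain.

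In grain after partial removal, 0 of 15 tested lipoxygenases were called by limma, where 0.0284% of all genes were called, and 2 were higher at an unadjusted p under 0.05. Of the 15 differences 14 were above 0, with a median of 0.17 against 0.00070 over all genes, and 14 were above 0 with quantile normalization too. Of the 11 tested loci that are not members, 10 were above 0, with a median of 0.17. In shaded grain 1 of 15, MSTRG.53511, was called lower, where 1.82% of all genes were called and 1.5% were called lower. Of the 15 differences 8 were below 0, and without scaling, which moves the median of all genes to -0.31, this became 14. Against partial removal, shaded grain had 2 called lower, MSTRG.53511 and MSTRG.44050, where 0.19% of all genes were called and 0.159% were called lower. That count was 0 without shaded library 2 or 3 or any 1 partial-removal library, and 1 without shaded library 1 or control library 2 or 3. Members were the only calls in grain, they were picked from these values, and nothing is read from these counts.

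None of the 11 tested lipoxygenases outside the members was called in any of the 3 grain comparisons by limma, with 1, 1 and 3 of them at an unadjusted p under 0.05. MSTRG.40415, the most abundant of these, had 59.7 ± 8.36 scaled FPKM in control, 71.4 ± 5.36 after partial removal and 59 ± 5.9 in shaded grain. MSTRG.43304 on 4DS had 19.7 ± 2.87, 22.7 ± 1.17 and 20.3 ± 3.97 (SD, n = 3). Shaded grain overlapped control for both. Summed over 34 loci, lipoxygenase was 147 ± 19.7 in control grain, 187 ± 13.4 after partial removal and 116 ± 16.2 in shaded grain, and the 7 genes made up 38.8, 42.4 and 22.6% of it.

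**Figure D4:**
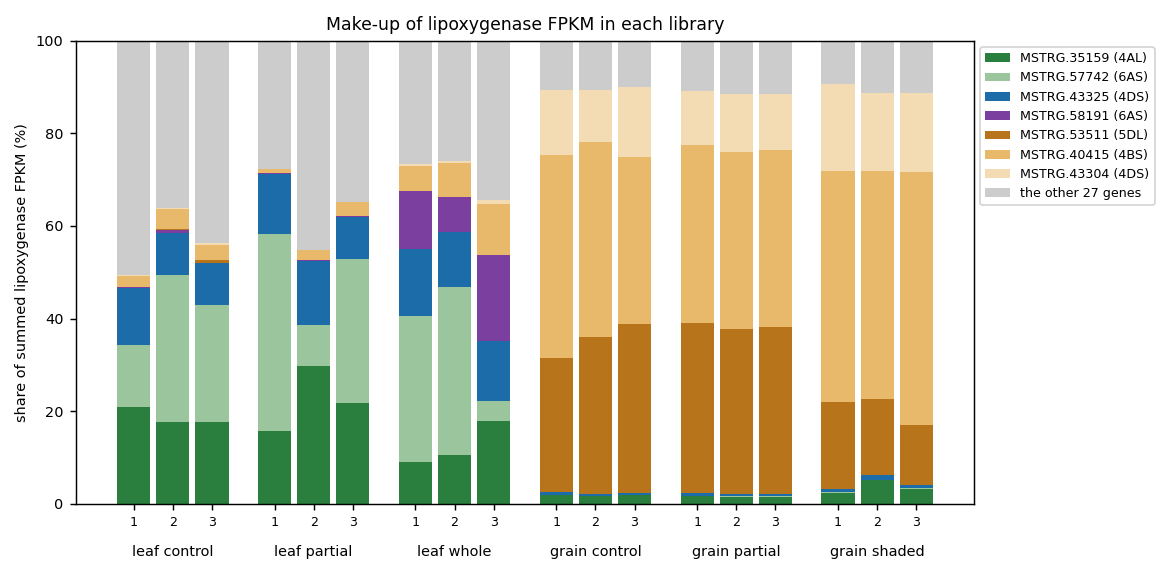
Share of summed lipoxygenase FPKM (vertical axis, percent) taken by each of 7 abundant loci and by the other 27 together in every library (horizontal axis, libraries 1 to 3 of each group). In shaded grain MSTRG.53511 takes 13.0 to 18.9%, against 29.0 to 36.4% in control grain, and in leaf MSTRG.58191 takes 7.61 to 18.5% after whole spike removal and at most 0.527% otherwise.

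In control plants, most lipoxygenases that were tested had different levels in leaf and grain. Of 20 loci tested over the 6 control libraries, 14 were called higher in leaf and 5 higher in grain, where 70.8% of all genes were called, 35.6% higher and 35.2% lower. The balance depends on the filter, since 9 of the 20 loci passed through leaf alone and 4 through grain alone. For these the filter fixed which tissue had the higher FPKM, though not a call, and 8 of the 9 and 4 of the 4 were called. Of the 7 that reached an FPKM of 1 in both tissues, 6 were called higher in leaf and 1 in grain. Without any 1 control leaf library 6 were called higher in leaf and 5 in grain, and without any 1 control grain library 13 and 1. There were 6 members among the 20, with differences of leaf from grain of 2.78 ± 0.19 for MSTRG.74867, 2.21 ± 0.14 for MSTRG.35159, 1.85 ± 0.14 for MSTRG.8761, 1.42 ± 0.16 for MSTRG.11562, -2.61 ± 0.22 for MSTRG.44050 and -5.62 ± 0.24 for MSTRG.53511. Of the other loci that reached an FPKM of 1 in both tissues, MSTRG.43325 on 4DS was higher in leaf (log2 difference 2.49 ± 0.13, limma adjusted p = 5.4e-06) and MSTRG.40415 was higher in grain (-4.16 ± 0.28, limma adjusted p = 1.4e-05). Among loci that passed the filter through 1 tissue alone, given with no test, MSTRG.57742 and MSTRG.67262 were higher in leaf by 4.47 ± 0.39 and 1.89 ± 0.12. MSTRG.43304 and MSTRG.39839 on 4BS, likewise given with no test, differed by -4.35 ± 0.14 and -1.63 ± 0.10. Of the 34 loci, 11 stayed under an FPKM of 1 in every library of the series.

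The order of levels over all 6 groups, with all 18 libraries scaled together, differed by gene. For MSTRG.35159 and MSTRG.74867 the order ran from control leaf over partial to whole removal and then to grain, with no overlap among the leaf groups or between leaf and grain. For MSTRG.8761 whole removal came before partial removal, again without overlap. For MSTRG.11562, control leaf (4.75 ± 1.012, SD, n = 3) stood clear of all others, followed by grain after partial removal (1.43 ± 0.0639), and control grain and whole-removal leaf were not separable. For MSTRG.53511 the order was partial removal (76.9 ± 8.0), control (55.9 ± 13.3) and shaded grain (21.7 ± 7.24) without overlap, and for MSTRG.44050 partial removal and control grain overlapped.

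Genes of the steps around lipoxygenase were examined beside the family. Allene oxide synthase and allene oxide cyclase turn the 13-hydroperoxide of linolenic acid into 12-oxophytodienoic acid, a reductase and rounds of beta-oxidation shorten it to jasmonic acid, and JAR1 joins jasmonic acid to isoleucine, which gives the active hormone. The lists held 31 loci of these steps, fatty acid desaturases and alpha-dioxygenase 1, which oxygenates fatty acids itself and does not act on lipoxygenase products. Of the 31, 22 were tested in leaf and 0 were called by limma after partial removal, with 5 at an unadjusted p under 0.05. In that comparison 1.63% of all genes were called. Whether they differed from the lipoxygenases in response was not tested.

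After whole removal 6 of these 22 were called lower and 1 higher, where 9.5% of all genes were called lower and 10.8% higher. Allene oxide cyclase 1 (MSTRG.58914 on 6BL) fell from 3.24 ± 0.434 to 1.80 ± 0.0662 scaled FPKM (log2 difference -0.60 ± 0.12, limma adjusted p = 0.0079). The acyl-CoA oxidase MSTRG.74225 on 7DS, an enzyme type that starts beta-oxidation, fell from 12.3 ± 1.81 to 2.50 ± 1.08 (-1.95 ± 0.29, limma adjusted p = 0.0027). A 3-ketoacyl-CoA thiolase-like gene, the type that ends each round, fell by 0.92 ± 0.22 (MSTRG.61894 on 6DL, limma adjusted p = 0.020), a call lost without control library 1 or whole-removal library 1 or 3 (adjusted p of 0.058 to 0.062). The other lower calls were the acyl-CoA oxidases MSTRG.71121, MSTRG.66540 and MSTRG.34415, named after their values were seen, at -1.84 ± 0.29, -1.47 ± 0.18 and -0.89 ± 0.24. Acyl-CoA oxidases and thiolases also break down other fatty acids, so these loci are not specific to jasmonate.

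JAR1 on 1DL (MSTRG.7414) was the higher call, at 1.77 ± 0.921 in control and 7.15 ± 3.25 after whole removal (SD, n = 3; log2 difference 1.52 ± 0.35, limma adjusted p = 0.016). The other JAR1 loci, MSTRG.1004 on 1AL and MSTRG.3798 on 1BL, were not called there and had differences below 0. For MSTRG.7414 the call was not stable. Without whole-removal library 1 or 3 the call was lost, with adjusted p of 0.050 and 0.055. The 12-oxophytodienoate reductase 3 loci MSTRG.66043 and MSTRG.72955 were not called, with 8.44 ± 1.06 and 5.00 ± 1.30 in control leaf and 8.79 ± 1.54 and 5.73 ± 1.60 after whole removal. Whole against partial removal gave 1 higher and 4 lower calls of 22, where 8.57% of all genes were called higher and 7.95% lower. In grain 0 of 23 tested loci were called by limma in any of the 3 comparisons, with 1, 3 and 4 at an unadjusted p under 0.05. Of all genes, 0.0284, 1.82 and 0.19% were called there. Between control leaf and control grain, 17 of 23 were called higher in leaf and 3 in grain, against 35.6% and 35.2% of all genes. The 3 calls in grain were each lost without any 1 control leaf library. A locus described as a probable inactive linolenate hydroperoxide lyase was higher in leaf (MSTRG.58160 on 6AS, 2.92 ± 0.34, limma adjusted p = 0.00019). A chloroplast omega-3 desaturase (MSTRG.17151 on 2BS) and a chloroplast omega-6 desaturase (MSTRG.17198 on 2BS), which make polyunsaturated fatty acids, passed the filter through leaf alone and differed by 4.25 ± 0.16 and 3.16 ± 0.12, given with no test.

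For each member, the described genes with the most similar pattern over the 6 group means were sought, by the root mean square difference of log2 means after centring. MSTRG.11562 was nearest to the lipoxygenase MSTRG.16752 (0.105) and next to a low molecular weight glutenin locus (MSTRG.6678, 0.128), an endosperm storage protein listed at 0 in every group but control leaf. MSTRG.35159 was nearest to the thiolase-like MSTRG.61894 (0.106) and to a glutamine synthetase, which assimilates ammonium (MSTRG.62537, 0.123). MSTRG.44050 was nearest to MCM2 and MCM3 (MSTRG.1871, 0.0663, and MSTRG.7922, 0.101), subunits of the helicase that opens DNA for replication.

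MSTRG.53511 was nearest to a non-specific lipid-transfer protein (MSTRG.32007, 0.300) and a purple acid phosphatase (MSTRG.54141, 0.395), both less alike than the pairs above. MSTRG.58191 was nearest to a serine/threonine kinase (MSTRG.34985, 0.228) and to a phenylalanine ammonia-lyase, which opens the phenylpropanoid pathway (MSTRG.20466, 0.271). MSTRG.74867 was nearest to FAMA, known in Arabidopsis as a factor of guard cell formation (MSTRG.4168, 0.120), and a potassium transporter (MSTRG.16773, 0.121). MSTRG.8761 was nearest to an mRNA cap methyltransferase (MSTRG.2946, 0.0666) and a serine/threonine kinase (MSTRG.12523, 0.0677). These likenesses rest on 6 group means each and are a description.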

How the data were processed

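Poly(A) RNA libraries (TruSeq v2, paired reads) were made from flag leaves and grains, per the labels' protocols. The authors deposited 1 table of gene FPKM values, and the tools named are HISAT, StringTie and edgeR, without versions, per the submitters' processing notes. The genome build is not given in the sources used here. Read counts were not used here, so absolute depth is unknown and precision comes from the spread between libraries.

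Here each tissue was fitted with limma 3.58.1 in R 4.3.3 on log2(scaled FPKM + 1), 1 mean per group, moderated variances with a trend, over genes whose FPKM reached 1 in 3 or more libraries (48696 in leaf, 45784 in grain). Libraries were scaled by their median ratio to each gene's geometric mean, over tested genes above 0 throughout the fit (46922 and 44129). The leaf minus grain contrast used 12 libraries and 31683 genes, and control leaf against control grain 6 libraries and 49955 genes. The tests were checked on simulated data. The pathway and marker lists were text patterns on descriptions.

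The 7 members and all lists were chosen with earlier results of these data known. Other lipoxygenase and pathway genes were named where they were called with a higher group mean of at least 1, up to 3 in each direction per comparison, pathway genes once per description. Alternatives tried were no scaling, quantile normalization, a pseudocount of 0.1, no filter, no variance trend, a replicate block, and leaving out each library.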

Additional observations from a re-analysis of the deposited data

Results flagged for a closer look

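For MSTRG.11562, the 2AL lipoxygenase, the values after partial spike removal lay apart in leaf and grain. The difference from control was -1.73 ± 0.16 in leaf and 0.16 ± 0.10 in grain on the log2 scale, and leaf minus grain was -1.91 ± 0.20 (SE, 12 libraries). Over 18 alternative settings, leaving out each library among them, it lay between -2.72 and -1.78. The gene was picked with these values known, so they are a description with no test. All 9 lipoxygenases fitted in both tissues, 2 of them members, had a leaf minus grain value below 0.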

How the results depend on the processing

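Across scaling, pseudocount, filter, variance trend, replicate block and leaving out libraries, no difference of a named gene reversed among those called. The difference of MSTRG.35159 between shaded grain and partial removal, which was not called, is the 1 member difference that changed sign, without scaling. Counts of lipoxygenases called moved as follows, and the cause was not tested except where fewer libraries left fewer loci past the filter. In leaf, partial removal gave 12 in place of 5 without scaling, and 2 to 5 when 1 library was left out. Whole against partial removal gave 5 in place of 3 with a pseudocount of 0.1, and 1 to 4 with 1 library left out. Whole removal against control gave 7 to 9 around 9. In grain, shaded against control gave 0 in place of 1 without scaling, without the filter and with the replicate block, and 0 to 1 with 1 library left out. Shaded against partial removal gave 1 in place of 2 without scaling, with a pseudocount of 0.1 or without a trend, 0 without the filter or with the replicate block, and 0 to 2 with 1 library left out. Partial removal in grain gave 0 throughout. Partial removal in leaf minus in grain gave 9 in place of 1 without scaling and 4 without the filter, and 1 whichever library was left out. Control leaf against control grain gave 19, and 11 to 14 with 1 library left out.

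The labels give no pairing of samples by library number. Deviations of same-numbered libraries correlated between -0.37 and 0.12, which with 3 libraries per group cannot settle whether samples were paired. With library number as a replicate block, 4 lipoxygenases were called after partial and 9 after whole removal in leaf, 2 in whole against partial removal, and 0 in each grain comparison. Taking lipoxygenases from any annotation column gave the same 34 loci. The number of reads per library is unknown, so levels near 0 have no floor here.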
